A study of Mus musculus with 18 samples.

Results

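The genes described here are 52 mouse genes of DNA replication and nucleotide supply, chosen by gene symbol. All 52 were found among the 19862 genes of the deposited table, and all were above 0 in enough libraries to be tested with 17515 genes in all. The cells were mouse osteosarcoma cells, a bone tumour line of mixed background whose tumour the labels place at postnatal day 299, derived from mice with conditional deletion of p53 and Rb. They carried floxed alleles of Prmt1, which encodes an arginine methyltransferase, together with a stably expressed CreER, a Cre recombinase that tamoxifen activates. KO cells were treated with 4OHT, the active form of tamoxifen, and control cells with ethanol, so the p53 and Rb background, the floxed alleles and CreER were common to both, and the deletion and the 4OHT treatment cannot be told apart. RNA was sequenced from polysome gradients of KO and control cells as Heavy (more than 3 ribosomes per mRNA) and Light (fewer than 3) pools and as unfractionated cytoplasmic RNA (Total), with 3 libraries in each of the 6 groups.

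Before S phase, the origin recognition complex, Cdc6 and Cdt1 load the MCM2-7 helicase onto DNA, and Cdc45, the GINS complex and Mcm10 help to switch it on. Behind the unwound fork, primase and the DNA polymerases copy the strands, the clamp loader places the PCNA ring that holds the polymerases, and RPA coats the single strands. Ribonucleotide reductase, thymidylate synthase, thymidine kinase and dUTPase supply deoxynucleotides, the CAF-1 chaperone and Asf1b repack the new DNA into chromatin, and cyclin E and the transcription factor E2F1 start the programme. Rb is the textbook repressor of E2F factors, and proliferating tumour cells usually transcribe most of these genes at the transition into S phase.

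Libraries held 32.3 to 57.9 M reads (M, 1000000). Values below are counts per 1000000 reads (CPM) taken back from the deposited log2(CPM + 1), and a log2 change is a difference of log2(CPM + 1), given ± its standard error. A gene was called at a limma adjusted p under 0.05. Prmt1 itself had 147, 176 and 173 CPM in Total RNA of KO cells, against 256, 277 and 285 CPM in control cells (-0.72 ± 0.21, limma adjusted p = 0.0202). Its change in Heavy RNA was -1.88 ± 0.21 (limma adjusted p = 7.87e-06) and in Light RNA -0.20 ± 0.21 (limma adjusted p = 0.506). Of the bone markers, Col1a1 was between 1317 and 2966 CPM in Total RNA over both genotypes, while the mature osteoblast genes Bglap and Ibsp were at or near 0. Summed markers of other cell types were low but higher in KO cells: 8 macrophage markers, of which 7 were in the table, summed to 16.4 to 20.1 CPM in Total RNA of KO cells and 6.62 to 8.73 CPM in control cells, 6 endothelial markers to 3.66 to 3.80 and 0.422 to 0.824 CPM, and 6 epithelial markers to 7.14 to 10.2 and 0.718 to 1.37 CPM. Ptprc, Pecam1 and Epcam stayed at or below 0.07, 0.37 and 0.14 CPM in all 18 libraries, but other markers of the same lists were higher in KO cells. In Total RNA Csf1r was at 7.33 to 10.5 CPM in KO cells and 2.95 to 3.95 CPM in control cells. Flt1 was at 2.23 to 2.96 and 0.288 to 0.519 CPM, and Krt14 at 5.34 to 6.82 and 0.452 to 0.671 CPM. No tested marker of these lists had a negative change in Total RNA. The part of such cells in the results below was not tested. The first KO library differed most from its group in each fraction: the chi-square per degree of freedom of its counts against the other KO libraries was 191 and 254 in Heavy, 95.03 and 119 in Light and 43.9 and 55.7 in Total RNA, against 31.4, 32.9 and 12.8 between those other libraries. Without it, 14 members were lower and 4 higher in Heavy RNA (20 and 6 with it), and 10 lower and 18 higher in Light RNA (12 and 16 with it). Of all 17515 genes, 1476 were lower and 2987 higher in Heavy RNA without that library (1819 and 3242 with it). In Light RNA 1632 were lower and 4010 higher (2224 and 4702 with it). Its part in the other results is given beside them.

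The promoters of several members carry the sequence motifs for which this gene class is known, and they are shown for 4 of the 6 helicase genes and for both ribonucleotide reductase genes, on which the results below turn. The window of Mcm2, not shown, holds 1 CCAAT box and neither E2F form, and Mcm4 had no window. RefSeq promoter windows of build GRCm38.p6, running from 250 bases before to 50 bases after a start, were on hand for 43 of the 52 genes. Capitals mark the E2F core forms TTTCCCGC and TTTGGCGC and the CCAAT box, or their reverse complements.
Mcm3, chr1:20820330-20820439, minus strand: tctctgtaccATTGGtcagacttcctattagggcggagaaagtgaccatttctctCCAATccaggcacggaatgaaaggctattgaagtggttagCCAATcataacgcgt
Mcm5, chr8:75109350-75109501, plus strand: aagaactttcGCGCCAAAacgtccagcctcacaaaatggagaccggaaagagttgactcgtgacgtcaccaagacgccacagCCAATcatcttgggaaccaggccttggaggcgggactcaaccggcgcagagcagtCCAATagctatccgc
Mcm6, chr1:128359706-128359825, minus strand: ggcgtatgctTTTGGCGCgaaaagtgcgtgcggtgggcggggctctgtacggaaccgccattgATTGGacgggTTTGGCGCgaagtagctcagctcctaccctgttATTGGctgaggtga
Mcm7, chr5:138171895-138172058, minus strand: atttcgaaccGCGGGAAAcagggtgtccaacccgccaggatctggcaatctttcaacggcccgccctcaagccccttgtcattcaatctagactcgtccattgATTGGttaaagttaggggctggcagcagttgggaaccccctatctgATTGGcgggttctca
Rrm1, chr7:102441594-102441664, plus strand: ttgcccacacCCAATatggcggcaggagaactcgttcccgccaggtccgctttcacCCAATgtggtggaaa
Rrm2, chr12:24708194-24708218, plus strand: tcagcggcgtCCAATgggaggcgag

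All 6 stretches lie before the start that RefSeq gives the window, and distances are counted from that start. For Mcm7 the GENCODE gene begins further upstream, at base 138172422 of chromosome 5, so its stretch lies inside that gene. Mcm6 holds an E2F core beginning 110 bases and another 47 bases before its start, Mcm5 holds 1 beginning 149 bases before it and Mcm7 1 beginning 165 bases before it. Mcm3 holds both forms after its start, outside the stretch shown. Neither form lay in the windows of Rrm1 or Rrm2, which hold CCAAT boxes. Searched on both strands, with a gene counted once however many matches its windows held, either E2F form was present in 13 of the 43 members (30.2%), against 1.8% of 27025 genes with a window. A CCAAT box was present in 25 members (58.1%), against 41.1% of those genes, and both motifs in 7 (16.3%), against 0.759%. With the 250 bases before the start alone, E2F forms were in 7 members (16.3%), against 1.51%. Among the 15006 genes of the deposited table with a window, 2.75% held an E2F form, 42.2% a CCAAT box and 1.16% both. Before the start alone, 2.3% of these held an E2F form. A match is a string of letters, not a measured binding site.

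Across the 52 genes, KO cells held less RNA of many members in Total and Heavy RNA, while in Light RNA the helicase genes, Pcna and Cdt1 were higher and 12 members, among them Rfc2, Rfc5, Rpa3, Tyms and Dut, were lower. In Total RNA 17 members fell, which is 32.7% of them, against 10.3% of all genes tested (13.4% of the 9651 genes averaging 5 CPM or more, a level all 52 members reach), and none rose, against 16.1% of all genes. At an unadjusted p under 0.05 the counts were 24 lower and 2 higher (against 15.2% and 21.9% of all genes), and with limma's voom on the recovered reads 18 fell and 0 rose. The median change of the members was -0.25, against 0.01 over all genes tested. The 3 KO and 3 control libraries did not overlap for 29 members that were lower and 1 that was higher, against 20.2% and 24.4% of all genes. In these bulk libraries, fewer cells in S phase and less of these RNAs per cell cannot be told apart. Leaving out the first KO library of Total RNA reduced the 17 lower members to 8 (8.15% of all genes were lower in that fit), whereas leaving out the first KO library of every fraction gave 20. In that last fit 2257 of all 17515 genes were lower, against 1808 with every library.

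In Heavy RNA 20 members fell (38.5%, against 10.4% of all genes and 16% of those of at least 5 CPM) and 6 rose (11.5%, against 18.5% and 21.5%), with a median of -0.20 against 0.02 over all genes. Fitted on the 6 Heavy libraries alone, 9 fell and 3 rose, against 5.14% and 11.9% of all genes in that fit. In Light RNA 16 rose (30.8%, against 26.8% and 33.2%) and 12 fell (23.1%, against 12.7% and 17.4%), with a median of 0.05, the same as over all genes tested (0.05) and below that of the genes averaging 5 CPM or more (0.14). The balance of the Light calls turned with scaling. After median-of-ratios scaling the Light counts were 8 higher and 21 lower (against 18.3% and 21.2% of all genes), and after quantile normalization 11 higher and 17 lower (against 17.5% and 19.5%). The Heavy counts after median-of-ratios scaling were 3 higher and 27 lower (against 14.5% and 18%). The KO and control libraries of Heavy RNA did not overlap for 25 members that were lower and 8 that were higher, against 13.8% and 24.1% of all genes, and those of Light RNA for 17 and 17, against 17.3% and 33.3%.

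Of the members, 8 fell in all 3 fractions: Tyms, Rfc2, Rfc5, Prim1, Orc2, Gins3, Asf1b and Ccne1. Another 6 fell in Total and Heavy RNA without a call in Light RNA, among them Chaf1b, Rfc4 and Rrm2. The 6 that rose in Heavy RNA, Mcm2, Mcm3, Mcm6, Mcm7, Cdt1 and Lig1, are among the 16 that rose in Light RNA, and none rose in 1 polysome fraction and fell in the other. Called in no fraction were 13 members: Pola1, Pola2, Pole, Pold3, Orc3, Orc4, Cdc6, Gmnn, Mcm10, Gins1, Gins4, Rpa2 and Ccne2. The calls that stood under all 16 alternatives of processing numbered 8 of 17 in Total RNA, 15 of 28 in Light RNA and 10 of 26 in Heavy RNA. They were Chaf1b, Gins3, Orc1, Orc5, Prim1, Rfc4, Rfc5 and Tyms in Total RNA. In Light RNA they were Cdt1, Dut, Gins2, Gins3, Mcm2, Mcm3, Mcm5, Mcm6, Mcm7, Pcna, Pole2, Rfc2, Rfc5, Rpa3 and Tyms. In Heavy RNA they were Chaf1b, Gins3, Mcm2, Mcm3, Orc5, Pold2, Prim1, Rfc4, Tk1 and Tyms.

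**Figure D1:**
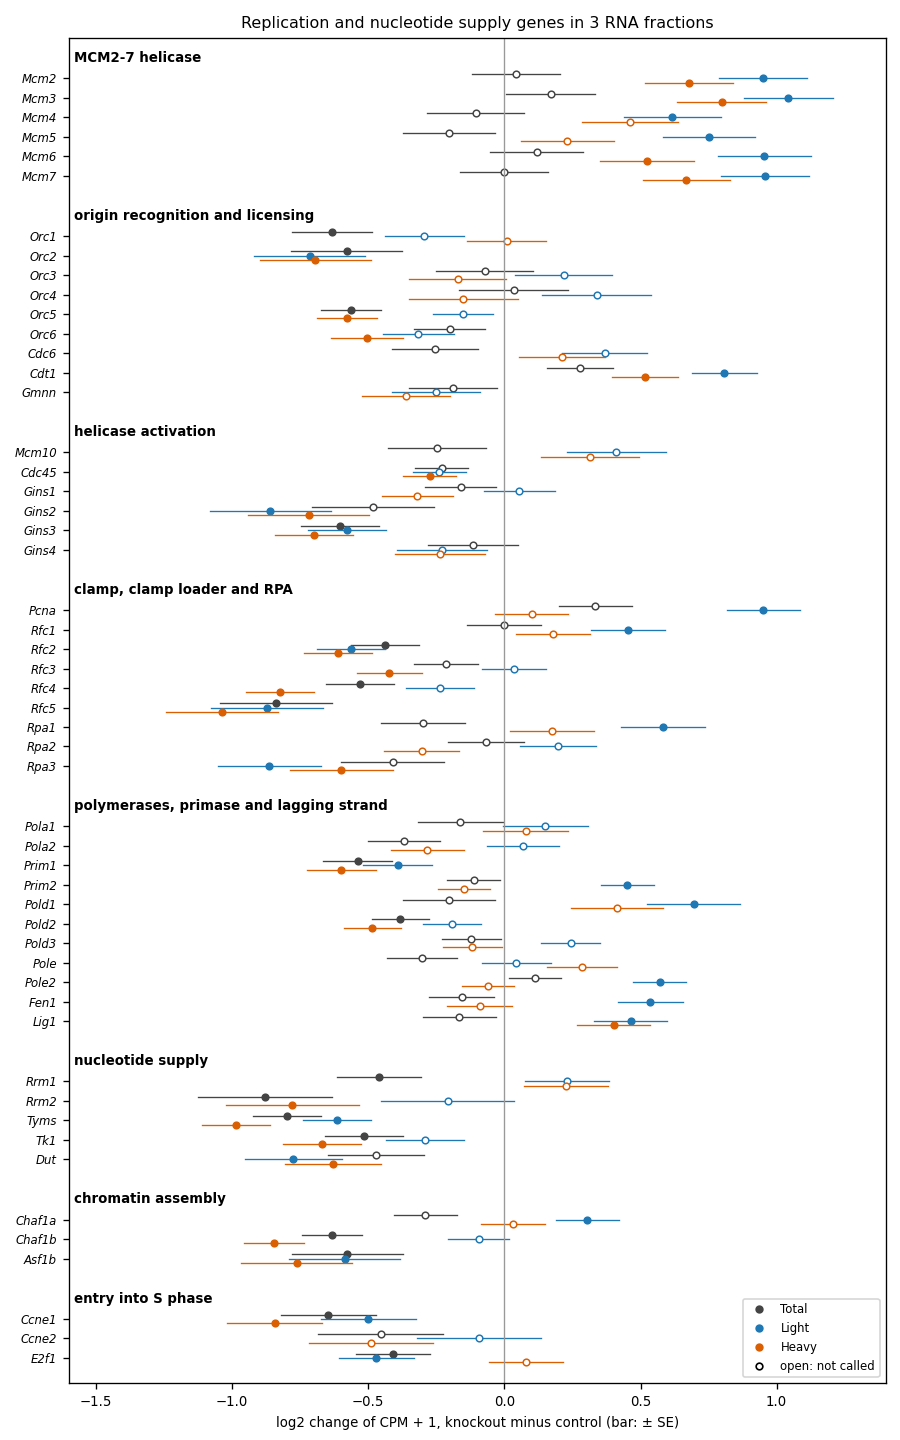
Log2 change of each of the 52 genes between KO and control cells in Total, Light and Heavy RNA, with bars of ± 1 standard error and genes grouped by role. Filled points were called at a limma adjusted p under 0.05. The helicase genes lie near 0 in Total RNA and right of 0 in both polysome fractions, while the nucleotide supply genes lie left of 0 in Total RNA.

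The 6 genes of the MCM2-7 helicase, the ring that unwinds DNA at the fork, were the group with the highest median changes in the polysome fractions. In Total RNA none was called (median 0.02, from -0.20 for Mcm5 to 0.17 for Mcm3). In Light RNA all 6 rose, by 0.62 (Mcm4) to 1.04 (Mcm3), and in Heavy RNA 4 of 6 rose. In Light RNA Mcm2 had 185, 210.0 and 217 CPM in KO cells, against 122, 90.1 and 105 CPM in control cells. In Heavy RNA Mcm2 had 514, 375 and 342 CPM in KO cells, against 263, 227 and 268 CPM in control cells. In Total RNA Mcm2 had 223, 284 and 317 CPM in KO cells, against 248, 252 and 292 CPM in control cells. Every KO library lay above every control library in Light and in Heavy RNA, and the genotypes overlapped in Total RNA. Its change was 0.95 ± 0.16 (limma adjusted p = 0.000234) in Light and 0.68 ± 0.16 (limma adjusted p = 0.00464) in Heavy RNA.

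In Light RNA Mcm3 had 150.0, 169 and 177 CPM in KO cells, against 92.2, 68.9 and 79.00 CPM in control cells. In Heavy RNA Mcm3 had 448, 328 and 269.9 CPM in KO cells, against 191, 186 and 211 CPM in control cells. In Total RNA Mcm3 had 221, 289 and 301 CPM in KO cells, against 233, 232 and 249.5 CPM in control cells. Again the groups were apart in both polysome fractions and overlapped in Total RNA, with changes of 1.04 ± 0.16 (limma adjusted p = 0.000107) in Light and 0.80 ± 0.16 (limma adjusted p = 0.0015) in Heavy RNA. Mcm7 followed the same order, with 133, 141 and 147 CPM in KO cells, against 81.1, 64.3 and 70.8 CPM in control cells in Light RNA. In Heavy RNA Mcm7 had 335, 239.8 and 202 CPM in KO cells, against 158, 149.7 and 169 CPM in control cells. In Total RNA Mcm7 had 154, 194 and 211 CPM in KO cells, against 174, 174 and 208 CPM in control cells. Its changes were 0.96 ± 0.16 (limma adjusted p = 0.000203) in Light and 0.67 ± 0.16 (limma adjusted p = 0.00493) in Heavy RNA, where the call was lost in the fit on the Heavy libraries alone (adjusted p = 0.0631). The exons of Mcm7 also hold the miRNA genes Mir25 and Mir93 and share bases with Ap4m1 and Cops6 on the other strand.

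In Light RNA Mcm6 had 135, 111 and 117 CPM in KO cells, against 64.6, 57.03 and 63.9 CPM in control cells. In Heavy RNA Mcm6 had 368, 238 and 196 CPM in KO cells, against 160.1, 173 and 209 CPM in control cells. In Total RNA Mcm6 had 190.0, 200.0 and 214 CPM in KO cells, against 194, 175 and 187 CPM in control cells. In Heavy RNA 1 KO library lay within the range of the controls, and the change of 0.52 ± 0.17 (limma adjusted p = 0.0301) lost its call in 7 of 16 alternatives (adjusted p up to 0.199), among them leaving out the first KO library (0.127). In Light RNA Mcm5 had 208, 223 and 246 CPM in KO cells, against 161, 114 and 129 CPM in control cells (0.75 ± 0.17, limma adjusted p = 0.00225). In Heavy RNA Mcm5 had 625, 514 and 409 CPM in KO cells, against 436, 396 and 470.0 CPM in control cells (0.23 ± 0.17, limma adjusted p = 0.354). In Total RNA Mcm5 had 229, 309 and 340.3 CPM in KO cells, against 309, 330.2 and 363 CPM in control cells. Mcm4 was the least changed of the 6 in Light RNA. There it had 62.6, 57.02 and 59.5 CPM in KO cells, against 40.1, 36.2 and 39.5 CPM in control cells (0.62 ± 0.18, limma adjusted p = 0.0112), a call lost under median-of-ratios scaling (adjusted p = 0.0855) and with the replicate block (0.0519). In Heavy RNA Mcm4 had 151, 91.97 and 84.6 CPM in KO cells, against 61.3, 81.3 and 89.6 CPM in control cells (0.46 ± 0.18, limma adjusted p = 0.0617). In Total RNA Mcm4 had 115, 130.1 and 134 CPM in KO cells, against 149, 126 and 134 CPM in control cells. The Heavy values of Mcm4 and Mcm5 overlapped between the genotypes and were not called.

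The first KO library of Heavy RNA was the highest for all 6 helicase genes. Their summed level there was 2442 CPM, against 1788 and 1504 CPM in the other KO libraries and 1213 to 1416 CPM in the controls. Without that library the median change of the 6 genes in Heavy RNA was 0.37, against 0.60 with it. The share of the helicase genes in the summed CPM of all 52 members does not change when a whole library is multiplied by a constant factor. Quantile normalization is not such a factor and can change it. That share was 21.5 to 23.2% in Light RNA of KO cells and 11.2 to 13.4% in that of control cells. In Heavy RNA it was 26.5 to 37.4% in KO cells and 19.6 to 21.4% in control cells, and in Total RNA 26.8 to 29.8% and 23.3 to 25.2%. The genotypes did not overlap in any fraction. The share also depends on the other 46 members, which summed to 3095 to 3612 CPM in Total RNA of KO cells and 4136 to 4292 CPM in that of control cells. The helicase genes themselves summed to 1132 to 1516 CPM in Total RNA of KO cells and 1288 to 1434 CPM in that of control cells, so in Total RNA the separation of the shares came with the lower sum of the other members.

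**Figure D2:**
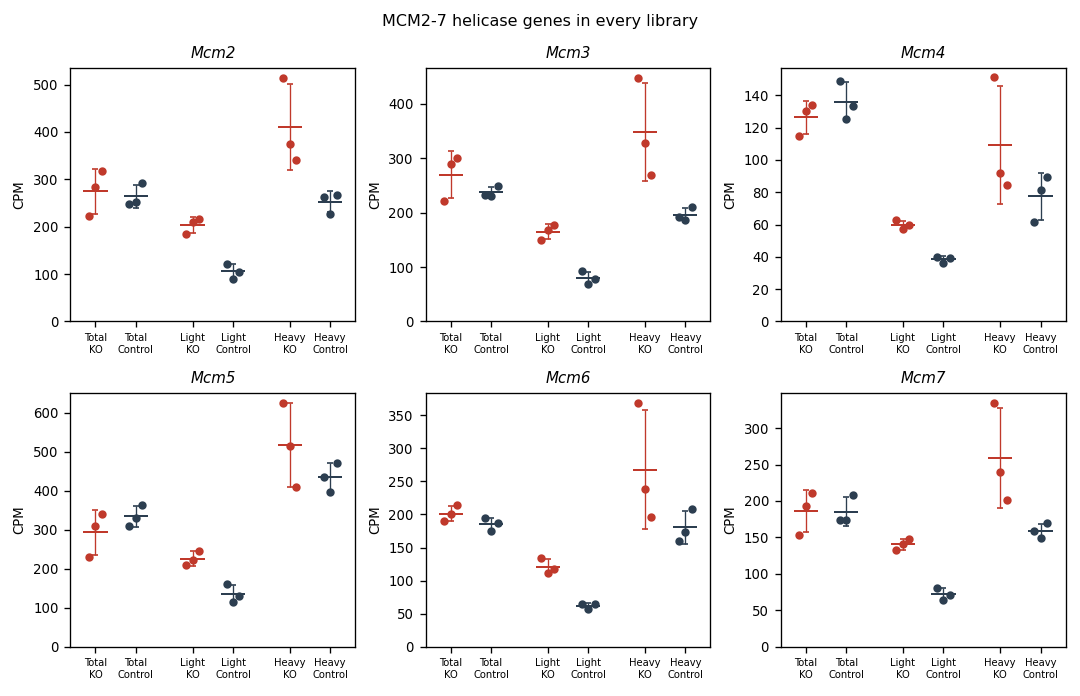
CPM of the 6 helicase genes in each of the 18 libraries, KO left of control within Total, Light and Heavy RNA, with the group mean as a line and ± 1 SD as a bar (n = 3). All 6 genes are higher in every KO library of Light RNA than in any control library, and the first KO library of Heavy RNA is the highest of its group throughout.

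Among the 9 genes that recognise and license origins, the loading factor Cdt1 rose and several ORC genes fell. In Light RNA Cdt1 had 143, 165 and 170.3 CPM in KO cells, against 98.5, 86.7 and 86.3 CPM in control cells. In Heavy RNA Cdt1 had 272, 263 and 221 CPM in KO cells, against 182, 171 and 173 CPM in control cells, with no overlap in either. In Total RNA Cdt1 had 137, 177 and 182 CPM in KO cells, against 128, 133 and 145 CPM in control cells, where the groups overlapped. Its changes were 0.81 ± 0.12 (limma adjusted p = 6.6e-05) in Light, 0.52 ± 0.12 (limma adjusted p = 0.00399) in Heavy and 0.28 ± 0.12 (limma adjusted p = 0.103) in Total RNA. Median-of-ratios scaling ended the Heavy call (adjusted p = 0.0789).

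In Total RNA Cdc6, the ATPase that works with Cdt1, had 34.4, 44.9 and 47.6 CPM in KO cells, against 50.1, 47.02 and 53.7 CPM in control cells. In Light RNA Cdc6 had 22.9, 30.6 and 33.02 CPM in KO cells, against 23.9, 18.97 and 22.99 CPM in control cells. In Heavy RNA Cdc6 had 55.3, 47.5 and 40.9 CPM in KO cells, against 42.3, 36.2 and 44.8 CPM in control cells, and it was called in none. Gmnn encodes geminin, the inhibitor of Cdt1. In Total RNA Gmnn had 51.2, 49.8 and 46.1 CPM in KO cells, against 61.6, 53.6 and 52.98 CPM in control cells. In Light RNA Gmnn had 62.99, 60.1 and 49.97 CPM in KO cells, against 66.9, 63.1 and 76.1 CPM in control cells. In Heavy RNA Gmnn had 35.1, 59.5 and 59.8 CPM in KO cells, against 67.97, 63.1 and 62.7 CPM in control cells. Every KO library was below every control library of its fraction, but no change of Gmnn was called, the size being -0.19 in Total, -0.25 in Light and -0.36 in Heavy RNA.

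Of the origin recognition subunits, Orc2 fell in all fractions, with log2 changes of -0.58 in Total, -0.71 in Light and -0.70 in Heavy RNA. Its Total call was near the threshold (adjusted p = 0.0463) and was lost in 7 of 16 alternatives. Orc2 shares 1150 exon bases with Nif3l1 on the other strand, so its reads are uncertain. Orc1, the ATPase subunit whose level varies over the cell cycle, fell in Total RNA, with 7.77, 11.7 and 12.6 CPM in KO cells, against 17.3, 16.02 and 17.2 CPM in control cells (-0.63 ± 0.15, limma adjusted p = 0.00403). In Heavy RNA Orc1 was at 11.4, 8.997 and 10.2 CPM in KO cells, against 9.97, 9.49 and 10.9 CPM in control cells and changed by 0.01. Orc5 fell in Total RNA (-0.56 ± 0.11, limma adjusted p = 0.00119) and Heavy RNA (-0.58 ± 0.11, limma adjusted p = 0.000842), and Orc6 fell in Heavy RNA (-0.50 ± 0.13, limma adjusted p = 0.00843). Orc3 and Orc4 were called in no fraction.

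The 6 genes of helicase activation had no member that rose. Gins3, a GINS subunit, fell in all 3 fractions, with log2 changes of -0.60 ± 0.14 (limma adjusted p = 0.00485) in Total, -0.58 ± 0.14 (limma adjusted p = 0.00428) in Light and -0.70 ± 0.14 (limma adjusted p = 0.00149) in Heavy RNA. In Total RNA Gins3 had 15.01, 18.9 and 18.02 CPM in KO cells, against 29.1, 28.2 and 23.3 CPM in control cells. Gins2, another GINS subunit, fell in Light RNA (-0.86 ± 0.22, limma adjusted p = 0.00598) and Heavy RNA (-0.72 ± 0.22, limma adjusted p = 0.0231), with 109.8, 161 and 135 CPM in KO cells, against 250.3, 241 and 237 CPM in control cells in Light RNA. Gins2 shares 2758 exon bases with Gse1 on the other strand, and the strand setting of the counting is not given, so its reads are uncertain. Cdc45, which joins GINS and MCM2-7 in the active helicase, fell in Heavy RNA with a log2 change of -0.27 ± 0.10 (limma adjusted p = 0.0448), a call lost in 8 of 16 alternatives. Mcm10, Gins1 and Gins4 were not called.

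Among the 9 genes of the sliding clamp, its loader and RPA, Pcna rose in Light RNA while the loader subunits mostly fell. In Light RNA Pcna, the clamp itself, had 366, 262 and 245 CPM in KO cells, against 154, 135 and 156 CPM in control cells. In Total RNA Pcna had 371, 384 and 353 CPM in KO cells, against 317, 287 and 275 CPM in control cells. In Heavy RNA Pcna had 635, 657 and 528 CPM in KO cells, against 552, 559 and 579 CPM in control cells. KO libraries were above all control libraries in Light and in Total RNA and overlapped them in Heavy RNA. The change was 0.95 ± 0.13 (limma adjusted p = 3.93e-05) in Light, 0.33 ± 0.13 (limma adjusted p = 0.0773) in Total and 0.10 ± 0.13 (limma adjusted p = 0.656) in Heavy RNA. Pcna was the member with the highest Total change of the 52.

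The subunits of the clamp loader did not all move one way. Rfc1, the large one, rose in Light RNA (0.45 ± 0.14, limma adjusted p = 0.0138), a call that quantile normalization (adjusted p = 0.135) and median-of-ratios scaling (0.137) ended. The small ones fell. Rfc5 fell in Total (-0.84 ± 0.21, limma adjusted p = 0.00633), Light (-0.87 ± 0.21, limma adjusted p = 0.00315) and Heavy RNA (-1.04 ± 0.21, limma adjusted p = 0.00117). Rfc2 fell in all 3 (log2 changes of -0.44 in Total, -0.56 in Light and -0.61 in Heavy RNA), Rfc4 in Total (-0.53) and Heavy RNA (-0.82), and Rfc3 in Heavy RNA (-0.42). In Heavy RNA Rfc5 had 36.3, 65.6 and 82.9 CPM in KO cells, against 133, 114 and 116 CPM in control cells, the largest drop of any member in that fraction. Rfc2 and Rfc5 share 952 and 499 exon bases with Lat2 and Wsb2 on the other strand, and Rfc4 shares 194 with Eif4a2.

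RPA is a trimer. Rpa1, the large subunit, rose in Light RNA (0.58 ± 0.15, limma adjusted p = 0.00684), with 169, 167 and 188 CPM in KO cells, against 129, 101 and 119 CPM in control cells, but not after median-of-ratios scaling (adjusted p = 0.106). Rpa2 was not called in any fraction. Rpa3, the smallest, fell in Light RNA (-0.86 ± 0.19, limma adjusted p = 0.00181) and Heavy RNA (-0.60 ± 0.19, limma adjusted p = 0.0253), with 55.9, 68.4 and 51.1 CPM in KO cells, against 92.9, 111 and 117 CPM in control cells in Light RNA. The groups of Rpa1 and Rpa3 in Light RNA did not overlap.

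Of the 11 genes of the polymerases, primase and lagging strand, 2 fell in Total RNA, 5 rose and 1 fell in Light RNA, and 1 rose and 2 fell in Heavy RNA. Prim1, the catalytic primase subunit, fell in all 3, with log2 changes of -0.54 ± 0.13 (limma adjusted p = 0.0046) in Total, -0.39 ± 0.13 (limma adjusted p = 0.0214) in Light and -0.60 ± 0.13 (limma adjusted p = 0.00185) in Heavy RNA. Its partner Prim2 rose in Light RNA (0.45 ± 0.10, limma adjusted p = 0.00151) and changed by -0.11 in Total and -0.15 in Heavy RNA. Pold1, the catalytic subunit of polymerase delta, rose in Light RNA (0.69 ± 0.17, limma adjusted p = 0.00392), whereas the accessory subunit Pold2 fell in Total (-0.38 ± 0.11, limma adjusted p = 0.0133) and Heavy RNA (-0.48 ± 0.11, limma adjusted p = 0.0024). In Light RNA Pole2, a subunit of polymerase epsilon, had 19.7, 17.3 and 16.9 CPM in KO cells, against 12.2, 11.5 and 11.6 CPM in control cells and rose (0.57 ± 0.10, limma adjusted p = 0.0002). The flap nuclease Fen1 rose in Light RNA (0.54 ± 0.12, limma adjusted p = 0.00217), and the ligase Lig1 in Light (0.46 ± 0.13, limma adjusted p = 0.0115) and Heavy RNA (0.40 ± 0.13, limma adjusted p = 0.0333). The Heavy call of Lig1 was lost in 8 of 16 alternatives. Pola1, Pola2, Pold3 and Pole were called in no fraction.

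The 5 nucleotide supply genes were the group with the most members lower in Total RNA for its size, 4 of 5, with the fifth, Dut, not overlapping either. Tyms encodes thymidylate synthase, which makes dTMP. In Total RNA Tyms had 70.5, 85.2 and 79.6 CPM in KO cells, against 137, 138 and 135 CPM in control cells. In Light RNA Tyms had 76.4, 83.6 and 72.5 CPM in KO cells, against 123, 114 and 120.2 CPM in control cells. In Heavy RNA Tyms had 80.9, 120.5 and 109 CPM in KO cells, against 219.7, 192 and 198 CPM in control cells. All KO libraries were below all control libraries in each fraction. The changes were -0.80 ± 0.12 (limma adjusted p = 0.000168) in Total, -0.62 ± 0.12 (limma adjusted p = 0.000975) in Light and -0.99 ± 0.12 (limma adjusted p = 2.06e-05) in Heavy RNA, and each call stood under all 16 alternatives.

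Rrm2 encodes the small subunit of ribonucleotide reductase. In Total RNA Rrm2 had 82.5, 162 and 164 CPM in KO cells, against 268, 213 and 242 CPM in control cells. In Heavy RNA Rrm2 had 149, 237 and 195 CPM in KO cells, against 306, 303 and 377 CPM in control cells, with no overlap in either. In Light RNA Rrm2 had 64.00, 93.5 and 101 CPM in KO cells, against 102, 82.1 and 112 CPM in control cells, where the groups overlapped. The changes were -0.88 ± 0.24 (limma adjusted p = 0.0137) in Total, -0.78 ± 0.24 (limma adjusted p = 0.0245) in Heavy and -0.21 ± 0.24 (limma adjusted p = 0.542) in Light RNA. The first KO library was the lowest in each fraction, and without it the Total and Heavy changes were no longer called (adjusted p = 0.0798 and 0.105).

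Rrm1, the large reductase subunit, fell in Total RNA but not in the polysome fractions. In Total RNA Rrm1 had 109, 136 and 145 CPM in KO cells, against 191, 159.8 and 185 CPM in control cells (-0.46 ± 0.15, limma adjusted p = 0.0362). In Light RNA Rrm1 had 62.7, 63.7 and 68.2 CPM in KO cells, against 57.7, 50.00 and 57.9 CPM in control cells. In Heavy RNA Rrm1 had 146, 102 and 91.1 CPM in KO cells, against 85.5, 95.3 and 104 CPM in control cells. Its changes of 0.23 in Light and 0.23 in Heavy RNA were not called. The Total call was lost in 5 of 16 alternatives (adjusted p up to 0.167).

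In Total RNA Tk1, the salvage kinase of thymidine, had 161, 206 and 222 CPM in KO cells, against 264, 283 and 289.6 CPM in control cells. In Heavy RNA Tk1 had 224, 331 and 328 CPM in KO cells, against 493, 451 and 441 CPM in control cells. In Light RNA Tk1 had 209, 228 and 216 CPM in KO cells, against 287, 257 and 256 CPM in control cells. The KO libraries were lower without overlap in all 3 fractions, and Tk1 fell with a log2 change of -0.52 ± 0.14 (limma adjusted p = 0.0133) in Total and -0.67 ± 0.14 (limma adjusted p = 0.00208) in Heavy RNA. In Light RNA Dut, the dUTPase that keeps uracil out of DNA, had 178, 221 and 193 CPM in KO cells, against 334, 334 and 344 CPM in control cells. In Heavy RNA Dut had 60.8, 108 and 120.2 CPM in KO cells, against 156, 145 and 130.1 CPM in control cells. In Total RNA Dut had 139.7, 136 and 135 CPM in KO cells, against 201, 183 and 188 CPM in control cells. Here too no groups overlapped, and Dut fell with a log2 change of -0.77 ± 0.18 (limma adjusted p = 0.00252) in Light and -0.63 ± 0.18 (limma adjusted p = 0.0135) in Heavy RNA, with -0.47 ± 0.18 (limma adjusted p = 0.0606) in Total RNA. Without the first KO library of Total RNA, 1 of the 5 genes, Tyms, was still called lower in that fraction.

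**Figure D3:**
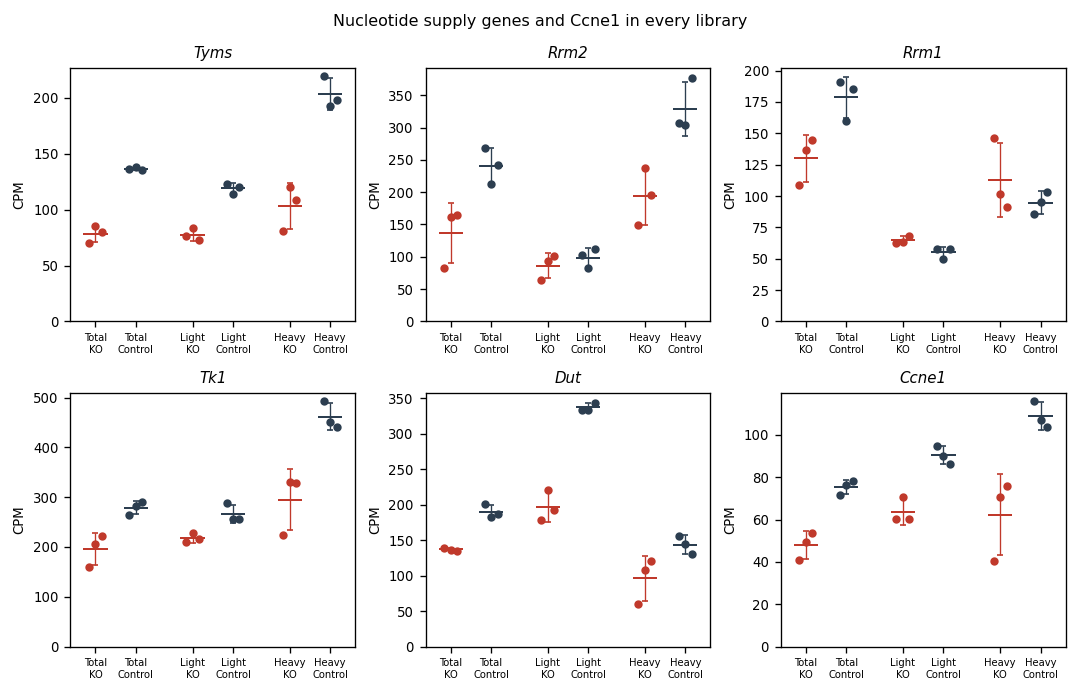
CPM of the 5 nucleotide supply genes and of Ccne1 in each of the 18 libraries, KO left of control within Total, Light and Heavy RNA, with the group mean as a line and ± 1 SD as a bar (n = 3). Tyms, Tk1, Dut and Ccne1 are lower in every KO library than in every control library of the same fraction, and Rrm1 is lower in KO cells in Total RNA alone.

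Of the 3 chromatin assembly genes, 2 fell in Total RNA. In Total RNA Chaf1b, the middle subunit of CAF-1, had 48.02, 52.5 and 50.3 CPM in KO cells, against 71.96, 80.8 and 83.3 CPM in control cells. In Heavy RNA Chaf1b had 58.4, 79.7 and 65.5 CPM in KO cells, against 119.8, 117 and 129 CPM in control cells, with no overlap. It fell with a log2 change of -0.63 ± 0.11 (limma adjusted p = 0.000435) in Total and -0.85 ± 0.11 (limma adjusted p = 2.77e-05) in Heavy RNA and changed by -0.09 in Light RNA. Its partner Chaf1a rose in Light RNA by 0.30 ± 0.12 (limma adjusted p = 0.0482), near the threshold and lost in 11 of 16 alternatives. Chaf1a shares 4648 exon bases with Ubxn6 on the other strand. The histone chaperone Asf1b fell in all 3 fractions, with log2 changes of -0.58 in Total, -0.59 in Light and -0.76 in Heavy RNA, but its Total call (adjusted p = 0.047) was lost in 9 of 16 alternatives.

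Of the 3 genes of entry into S phase, Ccne1 and E2f1 fell in Total RNA and Ccne2 was not called. In Total RNA Ccne1, a cyclin that activates Cdk2, had 40.98, 49.6 and 53.6 CPM in KO cells, against 71.7, 76.2 and 78.4 CPM in control cells. In Light RNA Ccne1 had 60.3, 70.9 and 60.2 CPM in KO cells, against 94.9, 89.8 and 86.5 CPM in control cells. In Heavy RNA Ccne1 had 40.5, 70.7 and 76.02 CPM in KO cells, against 116, 107 and 104 CPM in control cells. It fell with a log2 change of -0.65 ± 0.17 (limma adjusted p = 0.0115) in Total, -0.50 ± 0.17 (limma adjusted p = 0.0322) in Light and -0.84 ± 0.17 (limma adjusted p = 0.00163) in Heavy RNA. The Total call was lost without the first KO library (adjusted p = 0.0602), the Light call in 6 of 16 alternatives (up to 0.0921) and the Heavy call in the fit on the Heavy libraries alone (0.0603). Ccne2, the other cyclin E, was at a lower level and varied more, with 14.2, 15.4 and 13.6 CPM in KO cells, against 28.4, 16.7 and 17.00 CPM in control cells in Total RNA and no call in any fraction. In Light RNA Ccne2 had 9.12, 7.46 and 6.31 CPM in KO cells, against 5.47, 8.34 and 11.6 CPM in control cells, and in Heavy RNA 10.96, 12.1 and 8.71 CPM in KO cells, against 12.8, 16.1 and 16.8 CPM in control cells.

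In Total RNA E2f1 had 67.1, 69.8 and 68.8 CPM in KO cells, against 84.8, 96.2 and 93.4 CPM in control cells. In Light RNA E2f1 had 56.3, 69.6 and 90.9 CPM in KO cells, against 88.9, 115 and 93.6 CPM in control cells. In Heavy RNA E2f1 had 31.7, 30.6 and 31.5 CPM in KO cells, against 30.7, 29.8 and 28.2 CPM in control cells. The groups were apart in Total RNA and overlapped in both polysome fractions. E2f1 fell with a log2 change of -0.41 ± 0.14 (limma adjusted p = 0.0368) in Total and -0.47 ± 0.14 (limma adjusted p = 0.0123) in Light RNA, and changed by 0.08 ± 0.14 (limma adjusted p = 0.746) in Heavy RNA. Its Total call was lost in 6 of 16 alternatives (adjusted p up to 0.115).

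The members differed widely in level and in how they spread over the gradient. In Total RNA of control cells, CPM per kilobase of coding sequence ran from 3.75 (Pola1), 6.67 (Orc1) and 7.06 (Pole) to 318 (Dut), 374 (Pcna) and 399 (Tk1). In control cells 36 members had a higher CPM in Heavy than in Light RNA (69.2%, against 23.6% of all genes and 39.2% of those of at least 5 CPM), and 5 a lower one (9.62%, against 27.1% and 34.8%). In KO cells 33 were higher (63.5%, against 16.8% and 28%) and 6 lower (11.5%, against 26.8% and 34.7%). The median Heavy over Light difference of the members was 0.48 in KO cells and 0.81 in control cells, against -0.02 and -0.01 over all genes tested. Higher in both genotypes were 32 members, including all 6 helicase genes, and lower in both were 5: Rpa3, Gins2, Dut, E2f1 and Rfc2.

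E2f1 stood well below genes of its coding length in this ratio. Its Heavy over Light ratio was 0.563, 0.44 and 0.347 in KO cells, against 0.346, 0.259 and 0.301 in control cells. On the log2 scale it was -1.16 ± 0.14 (limma adjusted p = 5.19e-06) in KO cells and -1.70 ± 0.14 (limma adjusted p = 3.09e-08) in control cells. Genes of like coding length had a median difference of 0.33 in control cells, from which E2f1 differed by -2.04. At the other end, Pcna differed from genes of its length by 2.34 in control cells.

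Whether the Heavy over Light ratio itself differed between KO and control cells was tested as a difference of differences. Of the members 4 had a smaller ratio in KO than in control cells (7.69%, against 2.52% of all genes and 4.38% of those of at least 5 CPM), and none a larger one (against 0.354% of all genes). At an unadjusted p under 0.05 the counts were 11 smaller and 1 larger (against 11.6% and 3.96% of all genes), and with voom 4 smaller and 0 larger. The difference was negative for 45 of the 52. Its median was -0.28 over the members, against -0.02 over all genes tested and -0.09 over those of at least 5 CPM. The Pcna ratio was 1.73, 2.51 and 2.15 in KO cells, against 3.58, 4.16 and 3.72 in control cells (-0.85 ± 0.19, limma adjusted p = 0.0288). The Prim2 ratio was 1.99, 2.12 and 1.70 in KO cells, against 2.95, 2.96 and 2.96 in control cells (-0.60 ± 0.14, limma adjusted p = 0.0312). For both genes each KO ratio was under each control ratio.

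The same held for Pole2, with 1.71, 2.00 and 1.74 in KO cells, against 2.75, 3.03 and 2.89 in control cells (-0.63 ± 0.14, limma adjusted p = 0.0258). It also held for Chaf1b, with 1.09, 1.73 and 1.31 in KO cells, against 2.12, 2.26 and 2.50 in control cells (-0.75 ± 0.16, limma adjusted p = 0.0235). Pcna, Prim2 and Pole2 rose in Light RNA and were not called in Heavy RNA, while Chaf1b fell in Heavy RNA and was not called in Light RNA. Each of the 4 differences lost its call under quantile normalization (adjusted p = 0.0829 to 0.228), median-of-ratios scaling (0.0805 to 0.101) and the fit on the groups of the comparison alone (0.087 to 0.103). No member was called for the Heavy over Total or the Light over Total difference of differences (0 of 52 each, against 0.00571% and 0% of all genes higher). At an unadjusted p under 0.05, 12 members were higher and 0 lower for Heavy over Total (against 5.67% and 2.26% of all genes). For Light over Total 23 were higher and 0 lower (against 13.6% and 2.72%), and voom called 0 for both. Some other alternatives did call members higher for Light over Total, with the counts given in the last section. Among them, the fit on the groups compared alone called 1020 of all 17515 genes higher. The fit without the KO libraries numbered 1 called 746.

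**Figure D4:**
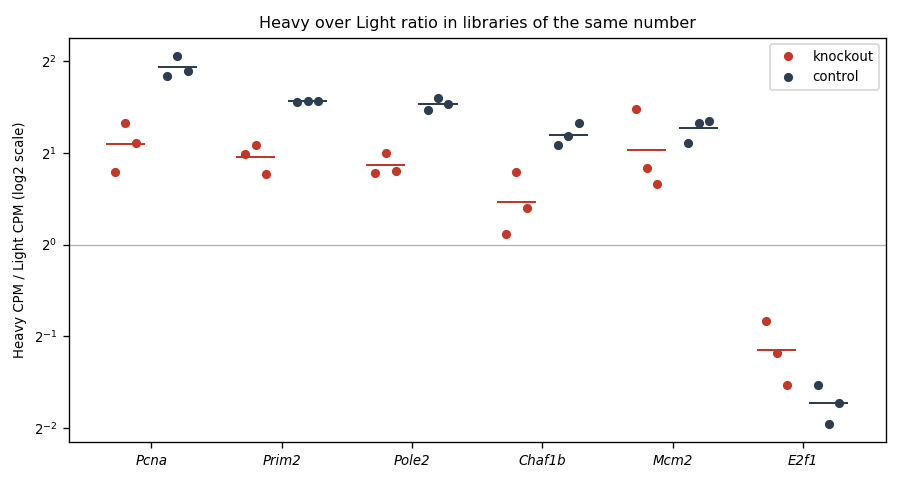
Heavy CPM divided by Light CPM for libraries of the same number, KO left of control for each gene, on a log2 axis with the mean as a line (n = 3). For Pcna, Prim2, Pole2 and Chaf1b every KO ratio lies under every control ratio; E2f1 lies under 1 in both genotypes, and Mcm2 overlaps.

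The changes in the polysome fractions moved with coding length. Over the 52 members, Spearman's rho between coding length and the KO change was 0.62 in Light RNA and 0.71 in Heavy RNA, against 0.30 in Total RNA. It was 0.77 for the Heavy over Total difference between KO and control cells. The same rho over 11033 genes of at least 1 CPM was 0.39 in Light, 0.33 in Heavy and 0.08 in Total RNA, and 0.53 for Heavy over Total. These are descriptions across genes that share the libraries and are not independent. The helicase genes code for 2157 (Mcm7) to 2712 (Mcm2) bases, while Rpa3 codes for 363 and Gins2 for 555. Set against genes of like length, the helicase genes lay higher in Light RNA, by 0.26 (Mcm4) to 0.73 (Mcm3), and in Heavy RNA by 0.11 (Mcm5) to 0.59 (Mcm3). These differences from genes of like length have no standard error, and the Heavy ones include the first KO library. The part of coding length in the changes was not tested. Pcna, at 783 coding bases, lay 1.02 above genes of its length in Light RNA. Tyms differed from genes of its length by -0.72 in Light RNA and -0.91 in Heavy RNA.

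**Figure D5:**
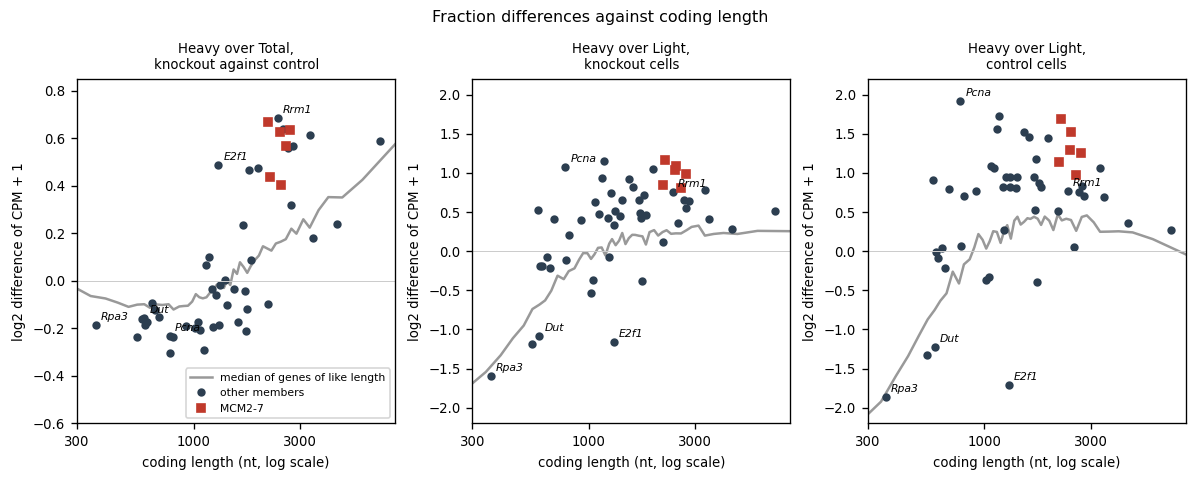
Log2 difference against coding length (log axis) for the 52 genes: Heavy over Total in KO against control cells, Heavy over Light in KO cells and Heavy over Light in control cells. The grey line is the median of genes of like length; most members lie above it in the Heavy over Light panels, and long members lie highest in the Heavy over Total panel.

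Other genes of the same pathways were counted against the same shares of all genes tested, which were 16.1% higher and 10.3% lower in Total, 26.8% and 12.7% in Light, and 18.5% and 10.4% in Heavy RNA. Of 30 further replication genes, 1 rose (3.33%) and 5 fell (16.7%) in Total RNA (median -0.22), 6 rose (20%) and 7 fell (23.3%) in Light RNA, and 6 rose (20%) and 4 fell (13.3%) in Heavy RNA, where the shares lay near those of all genes. Their Heavy over Light difference between KO and control cells was positive for 21 of the 30 (median 0.13), whereas it was negative for 45 of the 52 members (median -0.28). The median of that difference was -0.02 over all genes tested and -0.09 over those of at least 5 CPM. The fork protection factor Timeless rose by 0.93 ± 0.17 (limma adjusted p = 0.000449) in Light and 1.01 ± 0.17 (limma adjusted p = 0.000316) in Heavy RNA, and the maintenance methyltransferase Dnmt1 by 0.74 ± 0.17 (limma adjusted p = 0.00263) and 0.97 ± 0.17 (limma adjusted p = 0.000415). The helicase relative Mcm9 fell in all 3 fractions, with a change of -0.80 ± 0.13 (limma adjusted p = 0.000203) in Total RNA. Of 19 further nucleotide genes, 0 rose and 6 fell (31.6%) in Total RNA (median -0.43), 4 rose (21.1%) and 6 fell (31.6%) in Light RNA, and 1 rose (5.26%) and 7 fell (36.8%) in Heavy RNA. The folate enzyme Mthfd1 rose by 0.73 ± 0.17 (limma adjusted p = 0.00296) in Light and 0.63 ± 0.17 (limma adjusted p = 0.0112) in Heavy RNA.

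Of 20 genes of the E2F and Rb axis, 1 rose (5%) and 10 fell (50%) in Total RNA (median -0.45), 1 rose (5%) and 8 fell (40%) in Light RNA, and 2 rose (10%) and 8 fell (40%) in Heavy RNA. The Cdk inhibitor Cdkn1a, known as a p53 target, had 23.3, 20.5 and 22.9 CPM in Total RNA of KO cells, against 4.23, 3.76 and 4.91 CPM in control cells (2.14 ± 0.14, limma adjusted p = 2.39e-08). The transcription factor Mybl2 had 38.1, 64.2 and 72.2 CPM in Total RNA of KO cells, against 133, 141 and 158 CPM in control cells (-1.34 ± 0.30, limma adjusted p = 0.00313). The E2F family repressors E2f7 and E2f8 fell in Total RNA (-0.95 and -0.85), as did Skp2, a ubiquitin ligase subunit (-0.98). Rb1 itself was at 6.92, 5.29 and 4.01 CPM in Total RNA of KO cells and 3.38, 4.18 and 2.93 CPM in control cells.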

How the data were processed

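RNA from 18 libraries (Total, Light and Heavy RNA of KO and control cells, 3 each) was analysed from 1 table of 19862 genes. The values deposited by the authors are log2(CPM + 1). Undoing the log2 gave whole reads for 100% of values (tolerance 0.1) and 32.3 to 57.9 M reads per library. Per the submitters' processing notes, STAR, edgeR and mm10 were used. The sources used here give no versions and name neither the counting tool nor whether it used strand. The 19 members that share exon bases with another gene are therefore uncertain. For 13 of them the other gene is in the table: Ccne2, Chaf1a, Fen1, Gins2, Mcm7, Orc2, Orc4, Orc5, Orc6, Rfc2, Rfc4, Rfc5 and Tk1. For Cdc45, Lig1, Orc1, Pole, Pole2 and Rpa1 the symbol of the other gene is not in the table.

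The 52 members, their roles and the other gene lists were chosen with earlier results of these data known, and every member may be named. Tests used limma 3.58.1 in R 4.3.3 on the log2 values (robust, with a mean-variance trend), with 6 group means, over the 17515 genes above 0 in at least 3 libraries. Benjamini-Hochberg adjustment ran over all of them, and calls were made under 0.05. The script was checked on simulated data. Nothing in the labels says that the 3 libraries came from separate cultures, so p-values may measure technical spread alone.

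Coding lengths came from GENCODE vM21 and promoter windows from RefSeq (GRCm38.p6). Levels per length are CPM per kilobase of coding sequence. "Genes of like length" are the same 1 of 50 equal-sized groups by coding length among genes of at least 1 CPM. Alternatives were quantile normalization, median-of-ratios scaling, other filters, a pseudocount of 0.1, voom, no trend, only the groups compared, a replicate block, no KO libraries numbered 1, and each library left out. Heavy and Light libraries of the same number deviated together from their group means (correlations of 0.278 to 0.558 in KO cells and 0.294 to 0.396 in control cells). The third Heavy KO library, however, correlated most with the second Light KO library. Between Total RNA and either polysome fraction, same-numbered libraries had correlations of 0.0652 to 0.62 in KO cells. In control cells these were -0.608 to 0.302. The reported tests used no block. Pairing by number entered only the replicate block and the ratios of same-numbered libraries, and the labels tie the numbers to no shared lysate. Same-numbered KO and control libraries of a fraction had correlations of -0.419 to 0.492, the highest for the third libraries of Total RNA. Python 3.11.15 with pandas 2.3.3 and matplotlib 3.10.9 was also used.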

Additional observations from a re-analysis of the deposited data

Results flagged for a closer look

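Only the difference between KO and control cells in the Heavy over Light ratio met a rule for a closer look, in 4 members. On the log2 scale that difference was -0.85 for Pcna (limma adjusted p = 0.0288), -0.60 for Prim2 (0.0312), -0.63 for Pole2 (0.0258) and -0.75 for Chaf1b (0.0235). In each, all 3 KO ratios were under all 3 control ratios. Pole2 shares 245 exon bases with Gm49384 on the same strand. With the replicate number as a block within each genotype the same 4 members were called. The cause of these differences was not tested. Groups of 3 libraries were not screened for single outlying values.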

How the results depend on the processing

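Counts of called members moved with scaling, with single libraries and with the libraries fitted. Under quantile normalization the Heavy over Light difference between KO and control cells had 0 lower members, against 4, and 108 lower among all 17515 genes, against 441. Under median-of-ratios scaling that difference had 0 lower members, with 8 higher and 21 lower in Light RNA (against 16 and 12) and 3 higher in Heavy RNA (against 6). Among all genes that scaling gave 23 lower for the difference, 3197 higher and 3716 lower in Light RNA, and 2547 higher in Heavy RNA. On the groups of the comparison alone there were 1 higher in Total RNA, 3 higher and 9 lower in Heavy RNA, 0 lower for Heavy over Light and 14 higher for Light over Total (against 0). Of all 17515 genes, 2909 were higher in Total RNA, and 2076 higher and 900 lower in Heavy RNA in those fits. For Heavy over Light 1 gene was lower, and for Light over Total 1020 were higher. With a mean of at least 1 CPM, Light over Total had 8 higher (against 346 of 11602 genes), and without a trend 5 (against 455 of 17515). Without all KO libraries numbered 1 there were 2 higher in Total RNA, 12 lower for Heavy over Light and 14 higher for Light over Total. In the same order, the counts over all 17515 genes were 3110, 1309 and 746.

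Leaving out each library gave 0 to 1 higher and 8 to 16 lower in Total RNA (lowest without the first KO library), 15 to 18 and 8 to 11 in Light RNA, 4 to 8 and 14 to 22 in Heavy RNA, and 0 to 1 and 0 to 6 for Heavy over Light, where 7 of the 12 libraries each ended all calls. Over all 17515 genes the ranges were 2219 to 2562 higher and 1351 to 1492 lower in Total RNA. They were 3938 to 4556 and 1632 to 2058 in Light, and 2489 to 3245 and 1348 to 2348 in Heavy RNA. For Heavy over Light they were 3 to 708 and 4 to 1303. The cause of these shifts was not tested. With the replicate block the counts were 0 higher and 13 lower in Total, 14 and 9 in Light, and 4 and 18 in Heavy RNA, where libraries share only a number. Over all genes they were 2470 and 1548 in Total, 4206 and 1986 in Light, and 2814 and 1515 in Heavy RNA. For Heavy over Light, where same-numbered libraries deviated together, the block gave 0 and 4 (83 and 585 over all genes) and changed no call of a member. No called gene changed sign, but the balance of Light calls turned from more higher to more lower under both scalings (11 and 17 under quantile normalization). The Heavy over Light counts within control cells (36 and 5) and KO cells (33 and 6) stayed within 1.5 times under every alternative. Removing the coding-length trend set the members' Light median at -0.15, against 0.05. All members exceeded 5 CPM on average, and the effect of depth on their calls was not tested.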
